A study of Mus musculus with 24 samples.

Results

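Wild-type P19 cells were compared at day 10 after treatment with all-trans retinoic acid (ATRA) or with BMS753. P19 is a mouse embryonal carcinoma line that resembles the early embryo's pluripotent cells and forms neurons after exposure to a retinoid. ATRA is the natural ligand of all retinoic acid receptors (RARs), nuclear receptors that bind DNA with a retinoid X receptor partner and switch target genes on when ligand is bound. BMS753 is a synthetic agonist selective for the RAR alpha subtype. Targets of the receptors in the embryo include the Hox genes, which set position along the body axis, and the genes of retinoid turnover. In the neural tube, signals of the Wnt and Bmp families from the dorsal roof plate and Shh from the ventral floor plate specify which neurons form at each level.

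Each ligand was given at 1 μM for 4 days, and the cells were then kept for 6 days in Neurobasal medium with N2 and B27 lacking vitamin A. Both libraries were scored against the same reference library, wild-type cells with the ethanol vehicle (EtOH) at day 2. Day 10 libraries of the same ligands in P19 lines lacking RAR beta (rarbKO) or RAR gamma (rargKO) were set beside the wild type. Each knockout was 1 line with 1 library per ligand. The wild-type ATRA and BMS753 libraries of day 4, before the change to Neurobasal medium, were also used. Of other day 10 libraries, 1 value is taken from ATRA-treated cells of the line lacking RAR alpha (raraKO). Another is taken from wild-type cells given BMS641 with BMS961, agonists selective for RAR beta and RAR gamma. These agonists were each given at a lower dose than ATRA. All lines were scored against the same wild-type reference. An ethanol culture at day 10, without retinoid, served as the control for time and medium. Each condition was 1 library of poly-A RNA, so no difference described here has a replicate check and no test across cultures was possible. The files used here hold log2 values against EtOH day 2 only for genes under the authors' p-value limit of 0.01, so sequencing depth is unknown here. A gene missing from a table therefore failed that limit, which does not show that it was unchanged. The common reference cancels in the difference of the ATRA and BMS753 values, which is given below as ATRA minus BMS753 on the log2 scale.

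The comparison covered 679 genes listed in either table, of 1753 listed in any table of the series. The ATRA table held 546 genes, and 543 were listed in the BMS753 table. Both tables shared 410 genes, 300 higher and 110 lower than the reference in each, and 0 genes stood in opposite directions. ATRA alone listed 136 genes, 95 higher and 41 lower, which was 20% of the genes in either table. BMS753 alone listed 133 genes (19.6%), 83 higher and 50 lower. Among the shared genes the difference had a median of 0.07 (SD 0.99 across 410 genes) and ranged from -3.31 to 3.43. The ATRA value was above by at least 1 for 59 genes (14.4%), and the BMS753 value was above by at least 1 for 59 genes (14.4%). Of the 300 shared higher genes the ATRA value was the larger for 180 (60%), and of the 110 shared lower genes the ATRA value was the lower for 58 (52.7%). Some of the 110, such as Dppa4, Tnni3 and Lefty2, had values equal within 0.0001 in both tables. These carry no order and were not counted among the 58.

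**Figure D1:**
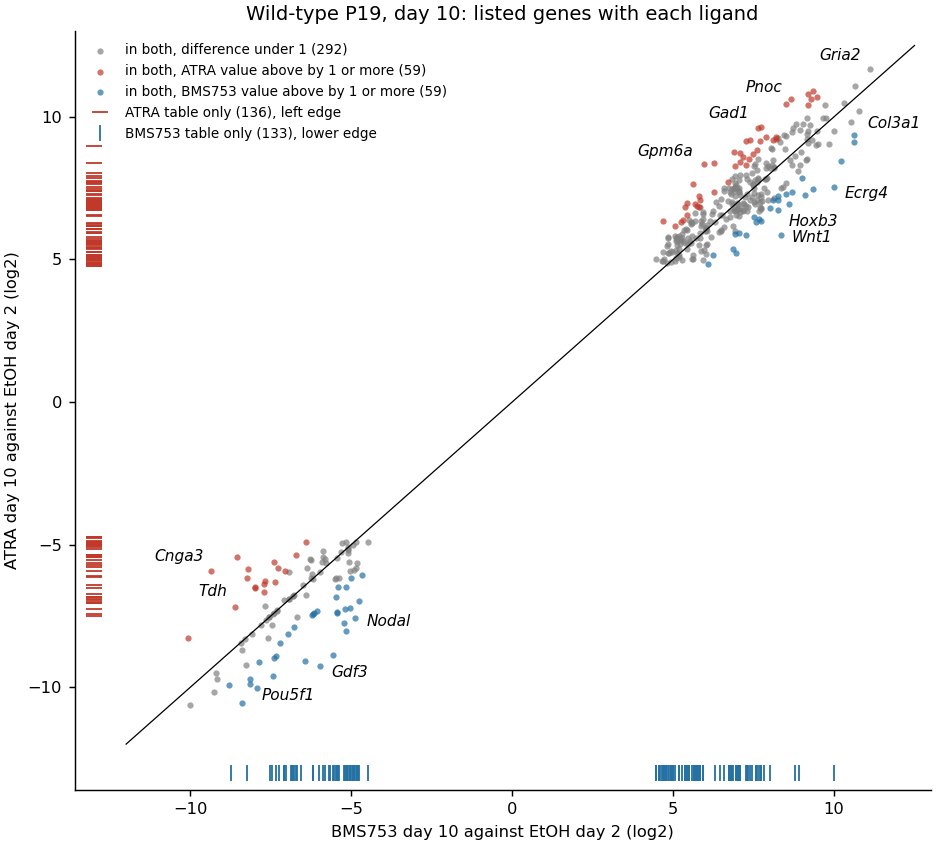
Log2 value against EtOH day 2 of every listed gene, with BMS753 on the horizontal and ATRA on the vertical axis; points are the 410 genes in both tables, the line marks equal values, and the ticks at the left and lower edges are the 136 and 133 genes in 1 table only. All shared genes lie in the upper right or lower left, and the 59 genes past a difference of 1 on each side flank the line.

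These differences were small beside the errors of the values. The standard error implied by each value and its p-value was between 1.83 and 2.80 in the ATRA table and between 1.73 and 2.71 in the BMS753 table, and the error of a difference, combined from both, had a median of 3.10. The difference exceeded 1 combined error for 3 genes and 1.96 combined errors for 0 genes. The combined error counts the shared reference with each value, although it cancels in the difference. It therefore overstates the error of a difference by an unknown amount, and these counts do not show how many genes differ. Absence from 1 table was often a matter of the limit as well. Genes in the ATRA table only cleared the limit by a median of 0.27 log2 units and those in the BMS753 table only by 0.34, against 1.07 and 1.10 for shared genes in the respective tables. Only 18 ATRA-only and 19 BMS753-only genes cleared it by 1 or more. The differences below are therefore descriptions of these libraries.

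The inhibitory neurotransmitter genes stood higher in the ATRA library. Of the 30 genes on the list of GABA and glycine signalling, 9 were listed, 3 in both tables, 5 with ATRA only and 1 with BMS753 only, and the EtOH day 10 table listed 0 of them. The ATRA-only members were 55.6% of the 9, beside 20% over all genes in either table. Gad1, which encodes the enzyme that makes GABA from glutamate (mm9, chromosome 2, 70391129 to 70440071, plus strand), had 9.59 ± 2.48 (implied SE) with ATRA and 7.63 ± 2.28 with BMS753, a ratio of 3.90. The receptor subunit gene Gabra2 had 7.51 and 6.90. All 3 shared members had the larger value with ATRA, with a median difference of 1.96 against 0.07 over all shared genes. Every one of these differences was below its combined error, which counts the shared reference with each value and is too large.

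Among the members that only the ATRA table listed were genes of the synthesis, storage and reception of GABA. Gad2, the second GABA-synthesising enzyme, had 6.93, and Slc32a1, which loads GABA into vesicles, had 6.82. The receptor subunit gene Gabrb2 had 5.37. Gad2 cleared the limit by 1.33, whereas Slc32a1 cleared it by 0.12 and Gabrb2 by 0.16. The subunit gene Gabra4 was the exception, listed with BMS753 only at 5.59, with a clearance of 0.01.

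Several neuropeptide and transcription factor genes found in inhibitory interneurons had the larger value with ATRA. Pnoc, which encodes the precursor of nociceptin, had 10.62 with ATRA and 8.67 with BMS753. Sst, encoding somatostatin, was in the ATRA table only at 7.55. Lhx5, Lhx1 and Pax2 encode factors of inhibitory spinal interneurons. Lhx5 had 10.89 and 9.36, Pax2 had 6.97 and 5.43, and Lhx1 was listed with ATRA only at 6.55. Gbx2, a factor of the anterior hindbrain, had 10.46 and 8.51, and Dlx5, a factor of forebrain interneurons and of neural crest, was in the ATRA table only at 6.83. These genes were picked out by the size of their values or by the lists, so their common direction is a description.

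**Figure D2:**
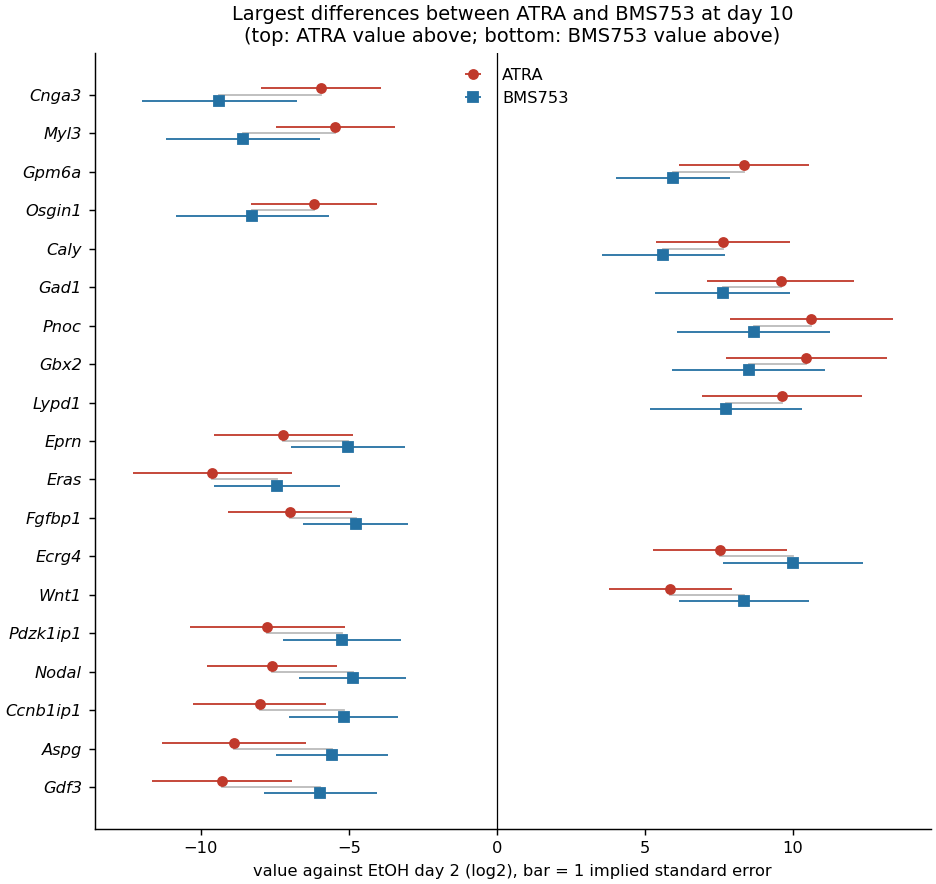
Log2 value against EtOH day 2 (horizontal axis, bars of 1 implied standard error) with ATRA (circles) and BMS753 (squares) for 19 of the genes with the most positive or most negative difference among those in both tables. Gpm6a, Caly, Gad1, Pnoc, Gbx2 and Lypd1 are higher genes with the larger ATRA value, Wnt1 and Ecrg4 are higher genes with the larger BMS753 value, and the remaining 11 are lower than the reference with both ligands.

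The other higher genes among the 10 with the largest differences toward ATRA were neuronal as well. Gpm6a, a membrane glycoprotein of neurons, had 8.36 with ATRA and 5.95 with BMS753, a difference of 2.41. Caly, a vesicle protein of neurons, had 7.65 and 5.63, and Lypd1, a modulator of nicotinic receptors, had 9.64 and 7.75. Lypd1 was also listed in the ethanol control at day 10, at 7.00. Krt17, a keratin gene outside these 10, had a difference close to that of Lypd1, with 9.15 and 7.26. It was at 7.82 in the ethanol control.

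Genes of the neuronal cytoskeleton, of synaptic vesicle release and of voltage-gated channels had slightly larger values with ATRA where both tables listed them. On the list of neuronal cytoskeleton genes and other neuron-wide markers, 9 members were in both tables and all 9 had the larger ATRA value, with a median difference of 0.76 and a range of 0.41 to 1.06. Elavl4, an RNA-binding protein of neurons, had 6.31 and 5.25; Mapt, encoding tau, had 8.05 and 7.45; and Dcx, encoding doublecortin, had 8.35 and 7.56. Tubb3, the neuronal tubulin, was in the ATRA table only at 4.87, close to the limit. Of the synaptic vesicle release genes all 6 listed members were shared and had the larger ATRA value (median difference 0.89), including the vesicle proteins Rab3c (7.08 and 5.83) and Rab3a (6.38 and 5.29). Among voltage-gated channel genes the 5 shared members had the larger ATRA value, led by the potassium channel gene Kcna2 (8.28 and 6.93). Kcna4 (7.02) and Kcnj9 (6.83) were listed with ATRA only, and Kcnj3 was listed with BMS753 only as lower, at -4.89. These medians compare with 0.21 over the 300 shared higher genes. The order was less uniform among the neuron markers that the study collected from other sources, of which 66 of 102 shared members had the larger ATRA value and 36 the larger BMS753 value (median difference 0.33). The neuronal genes Sncg (5.93) and Lsamp (5.28) were in the BMS753 table only.

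Glutamate receptor genes had the same order, but the glutamate transporter that marks excitatory neurons did not. Gria2, an AMPA receptor subunit, had the highest mean of all shared genes, 11.67 with ATRA and 11.12 with BMS753. Grin2b had 6.86 and 5.74, and Grin1, Grik1 and Grm7 were in the ATRA table only at 7.16, 6.05 and 5.63. Slc17a6, which loads glutamate into vesicles, had 9.80 with ATRA and 10.51 with BMS753. Both ligands thus gave libraries in which genes of excitatory and of inhibitory transmission were listed as higher. Of the monoamine and acetylcholine list, 2 genes were listed, the acetylcholine-degrading enzyme gene Ache (6.24 and 5.89) and Lmx1a, described below.

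Wnt1 and several other genes of the dorsal neural tube had the larger value with BMS753 or were listed with it alone, while other dorsal genes had the larger value with ATRA. Wnt1, a ligand made at the dorsal midline (mm9, chromosome 15, 98620288 to 98624268, plus strand), had 5.86 ± 2.06 with ATRA and 8.35 ± 2.19 with BMS753, a ratio of 5.59 toward BMS753 and the most negative difference of any higher gene, at -2.48. Of the Wnt ligand genes, a family singled out after its values were seen, 7 were listed and all were higher. Of these, 5 were in the BMS753 table only, a class that held 19.6% of all genes in either table. Wnt3a had 6.57, Wnt3 had 5.48, Wnt6 had 6.29, Wnt10b had 6.75 and Wnt11 had 5.63. In that order they cleared the limit by 1.10, 0.55, 1.26, 0.05 and 0.67. Wnt7b was the exception, with 7.49 for ATRA and 6.75 for BMS753. The ethanol control at day 10 also listed Wnt7b (8.37), Wnt10b (9.44) and Wnt6 (4.43), so these 3 did not need a retinoid to be listed, while Wnt1, Wnt3, Wnt3a and Wnt11 were absent from that table.

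Of the dorsal transcription factor genes, gathered here from several lists, 4 were listed with BMS753 only. On the dorsoventral and motor neuron list itself, 2 of 14 listed members were (14.3%), beside 19.6% over all genes in either table. Atoh1, the proneural factor of the dorsal-most interneurons, had 8.91. Msx1 and Lmx1a, factors of the roof plate, had 7.06 and 5.35, and Barhl1, found in neurons that derive from Atoh1-expressing progenitors, had 5.00. Among them Atoh1 and Msx1 cleared the limit by 2.20 and 1.85, and Lmx1a and Barhl1 by 0.43 and 0.23. Of the Bmp ligand genes, also singled out after their values were seen, Bmp4 (5.36 with ATRA and 6.84 with BMS753) and Bmp6 (5.21 and 6.95) had the larger value with BMS753, and Bmp2 had 7.81 and 7.30. Bmp4 and Bmp2 were also listed in the ethanol control, at 6.68 and 7.99. Other dorsal factor genes, listed in both tables, had the larger ATRA value, with Pax3 at 7.65 with ATRA and 7.47 with BMS753, Msx3 at 9.95 and 9.74, Lbx1 at 7.83 and 7.64, and Prdm13 at 7.96 and 7.25. Shh, the ventral signal, had the larger value with BMS753 (7.70 against 6.85).

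Over the whole list of dorsoventral and motor neuron factors most shared members had the larger value with ATRA. Of 14 listed members 10 were shared, 8 with the larger ATRA value (median difference 0.19), 2 were in the ATRA table only and 2 in the BMS753 table only. Pax3, Msx3, Lbx1 and Irx5 (6.55 and 6.51) differed by at most 0.21. Irx3 had 5.33 and 5.96, and Irx1 was in the ATRA table only at 4.99. Foxd3, a factor of pluripotent cells and neural crest, was lower with both, at -6.39 and -7.72. Among the proneural and progenitor factors, Neurod2 (5.55), Pax6 (5.03), Dll1 (4.98) and Prdm8 (7.00) were in the ATRA table only and Ebf3 (4.75) in the BMS753 table only, each clearing the limit by at most 0.30. Sox3 was in the BMS753 table only as lower, at -4.76.

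**Figure D3:**
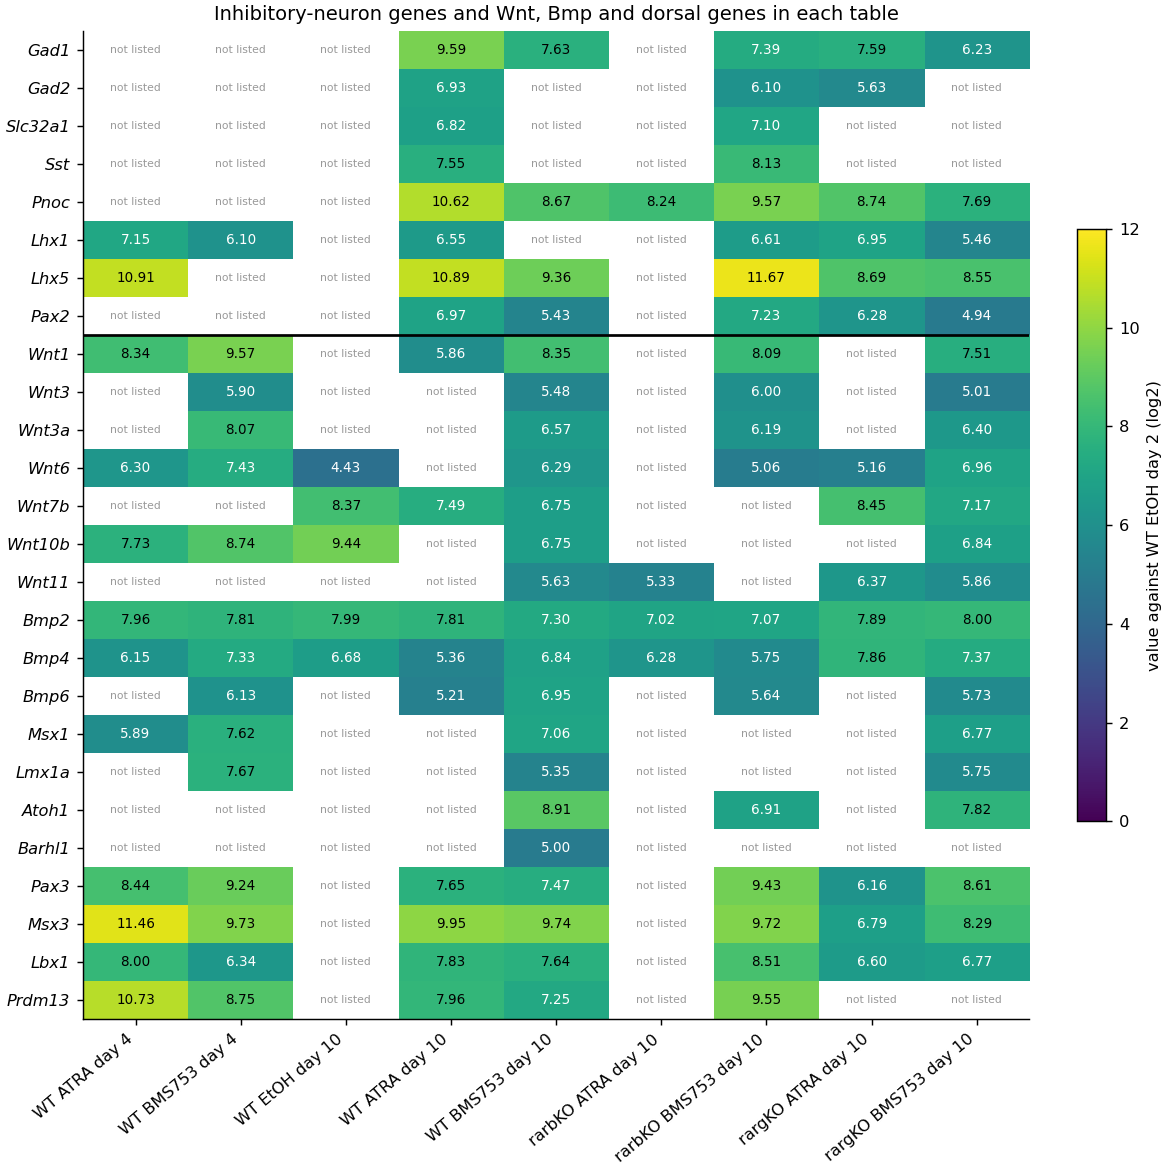
Log2 value against wild-type EtOH day 2 (colour and number) of 8 genes of inhibitory neurons (upper block) and of the listed Wnt and Bmp ligand genes with 8 dorsal factor genes (lower block, 18 genes) in 9 tables; white cells marked as not listed are genes absent from that table. The genes were chosen with their values known; in the wild type at day 10 all 8 upper genes are listed with ATRA and 4 with BMS753, and all 18 lower genes are listed with BMS753 and 9 with ATRA.

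At day 4, when ligand was withdrawn, the dorsal genes again went both ways. Wnt1 had 8.34 with ATRA and 9.57 with BMS753, Msx1 had 5.89 and 7.62, and Wnt3a (8.07), Wnt3 (5.90) and Lmx1a (7.67) were listed with BMS753 and not with ATRA. Msx3 (11.46 with ATRA and 9.73 with BMS753), Lbx1 (8.00 and 6.34) and Prdm13 (10.73 and 8.75) had the larger value with ATRA, and Pax3 (8.44 and 9.24) with BMS753. Atoh1, Wnt11 and Barhl1 were in neither table at that time. The genes Gad1, Gad2 and Slc32a1 were also in neither table at day 4, whereas Lhx5 was listed with ATRA only, at 10.91.

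In the knockout lines some of these genes kept their order and others did not. Wnt1 was in the BMS753 table and not in the ATRA table of both lines, at 8.09 in rarbKO and 7.51 in rargKO. Atoh1 (6.91 and 7.82), Wnt3 (6.00 and 5.01) and Wnt3a (6.19 and 6.40) were likewise listed with BMS753 and not with ATRA in rarbKO and rargKO. Wnt11 and Bmp4 did not keep theirs. Wnt11 was listed with ATRA only in rarbKO (5.33) and had 6.37 with ATRA and 5.86 with BMS753 in rargKO. Bmp4 had 6.28 and 5.75 in rarbKO, and 7.86 and 7.37 in rargKO. Pax3 (6.16 with ATRA and 8.61 with BMS753), Msx3 (6.79 and 8.29) and Lbx1 (6.60 and 6.77) had the larger BMS753 value in rargKO, and with Prdm13 they were in the BMS753 table only in rarbKO. The GABA genes differed between the lines as well. In rargKO, Gad1 had 7.59 with ATRA and 6.23 with BMS753, and Gad2 (5.63) was listed with ATRA only. In rarbKO, by contrast, Gad1 (7.39), Gad2 (6.10), Slc32a1 (7.10) and Sst (8.13) were listed with BMS753 and not with ATRA. Genes outside the lists that were listed with ATRA and not with BMS753 in all 3 lines, singled out after their values were seen, included Chodl (5.91 in wild type, 9.66 in rarbKO and 6.63 in rargKO), Lgi1 (7.75, 7.22 and 6.99) and Lmo3 (6.19, 6.72 and 5.78). Those listed with BMS753 and not with ATRA in all 3 included Calb1, encoding calbindin (7.38, 7.85 and 6.69), the neuronal factor gene Onecut2 (4.97, 6.88 and 4.88) and Nkd1, an inhibitor of Wnt signalling (4.68, 4.44 and 4.40).

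Mesenchymal genes had the larger value with BMS753 in the wild type. Of 17 listed members, 16 were shared and all 16 had the larger BMS753 value, with a median difference of -0.53 and a range of -1.42 to -0.07. Over the 300 shared higher genes the BMS753 value was the larger for 120, and the median difference was 0.21. Prrx1, a factor of limb and head mesenchyme, had 5.85 with ATRA and 7.27 with BMS753, and the collagen gene Col6a1 had 5.90 and 6.92. Col3a1, a fibrillar collagen, had 10.19 and 10.77. Meox1, a factor of the somites, went the other way and was listed with ATRA only at 6.78, clearing the limit by 0.07. Several matrix genes outside the list were in the BMS753 table only. The proteoglycan genes Fmod and Bgn had 8.80 and 7.74, and Sod3, the extracellular superoxide dismutase, had 8.02. In bulk RNA, fewer cells of a type and less RNA per cell cannot be told apart, so these values do not say whether the cultures differed in mesenchymal cells. The shared members of the neuronal cytoskeleton, synaptic vesicle and voltage-gated channel lists had smaller values in the same BMS753 library. Neuronal genes did not all do so, since 36 of 102 shared neuron markers had the larger BMS753 value. The part of cell composition in the mesenchymal or the neuronal values was not tested.

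**Figure D4:**
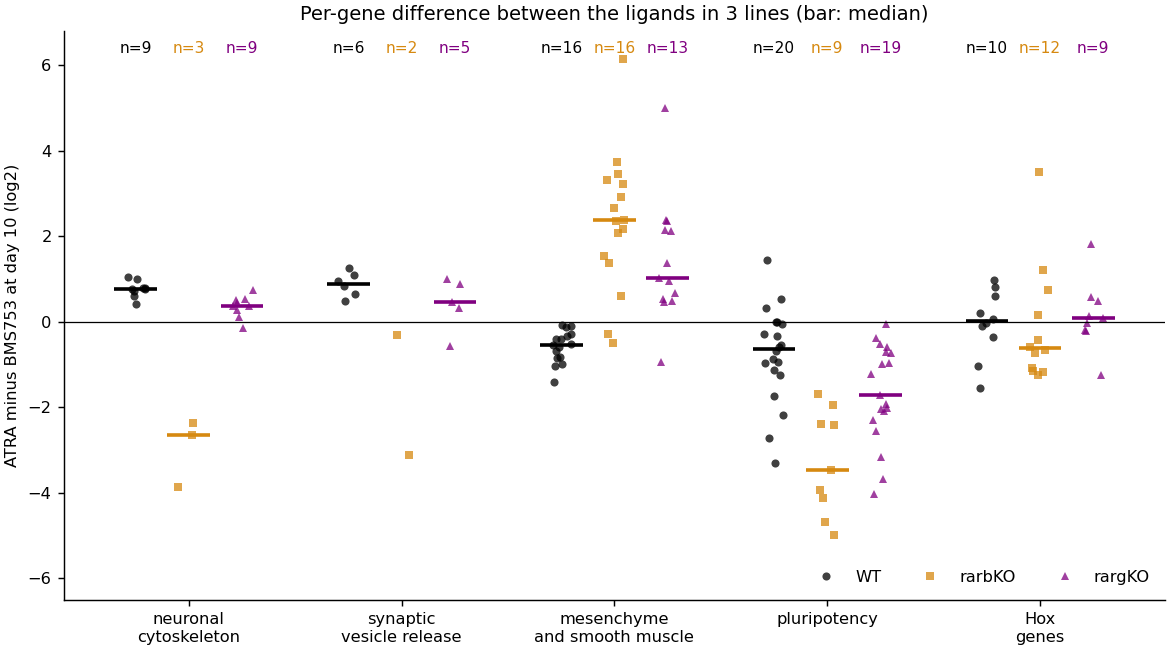
ATRA minus BMS753 at day 10 (log2, vertical axis) for each gene listed with both ligands, for 5 gene lists in wild type (circles), rarbKO (squares) and rargKO (triangles); short bars are medians of lists with at least 3 genes and n is the number of genes. Mesenchymal genes lie below 0 in wild type (median -0.53) and mostly above 0 in rarbKO (2.38) and rargKO (1.02).

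That order was the opposite in the knockout lines. In rarbKO 14 of 16 mesenchymal genes listed with both ligands had the larger ATRA value (median difference 2.38), and in rargKO 12 of 13 had it (1.02). Over all genes higher with both ligands, the ATRA value was the larger for 103 of 166 (62.0%) in rarbKO, with a median of 0.44. In rargKO it was the larger for 187 of 253 (73.9%), with a median of 0.46. Neuronal cytoskeleton genes had the larger ATRA value for 9 of 9 in wild type and 8 of 9 in rargKO (median 0.37), but for 0 of 3 in rarbKO (-2.64). Their rargKO median thus lay below that over all shared higher genes of the line. Other members were listed with BMS753 and not with ATRA in rarbKO, such as Dcx (7.51), Elavl4 (6.16), Stmn4 (5.83), Gap43 (5.30), Map2 (4.91) and Tubb3 (4.49).

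The Hox genes, classical retinoid targets, had no common order between the ligands. Of 39 Hox genes 12 were listed and 10 shared, 5 with the larger value for each ligand, and the median difference was 0.03, which became 0.81 at a p-value limit of 0.001 and -0.048 after centring. Hoxb3 had 6.72 with ATRA and 8.26 with BMS753, and Hoxb4 had 7.07 and 8.09. Hoxb7 (7.82 and 6.84), Hoxb8 (9.13 and 8.32) and Hoxb9 (6.04 and 5.44), which lie further toward the posterior end of the same cluster, had the larger ATRA value. Hoxa2 (7.26 and 7.62), Hoxa3 (7.02 and 6.82), Hoxa7 (9.23 and 9.15), Hoxc6 (7.29 and 7.31) and Hoxc9 (6.82 and 6.91) differed by less than 0.5. Hoxc8 was in the ATRA table only at 7.46, and Hoxc13 was in the BMS753 table only as lower, at -5.55, and lower in the ethanol control as well, at -7.38.

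Of 27 genes of the retinoid pathway, 3 were listed at day 10. The retinoic acid-binding protein gene Crabp1 had 5.21 with ATRA and 4.88 with BMS753, and Aldh1a2, encoding an enzyme that makes retinoic acid, had 5.75 and 5.71. Dhrs3, whose product turns retinaldehyde back into retinol, was in the BMS753 table only as lower, at -8.24, and cleared the limit by 2.70. The receptor genes Rara, Rarb and Rarg and the retinoic acid-degrading enzyme gene Cyp26a1 were in neither table.

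Genes of the pluripotent state were lower with both ligands and lowest with ATRA for most. The label describes the cultures as carcinoma stem cells, yet 21 of 38 pluripotency genes were lower at day 10 with at least 1 ligand, 20 of them with both. The ethanol culture at day 10 also listed 8 of the 21 as lower, without retinoid, among them Tdh (-5.22), Tdgf1 (-3.37), Nanog (-3.24) and Lefty1 (-3.05), which leaves 13. The ATRA value was the lower for 15 of the 20, with a median difference of -0.64. Over the 110 shared lower genes it was the lower for 58 (52.7%), with a median of -0.06. Pou5f1, the factor Oct4, had -9.88 with ATRA and -8.14 with BMS753. Gdf3 and Nodal, ligands of the TGF beta family made by pluripotent cells, had -9.28 and -5.96, and -7.59 and -4.87. Eras had -9.62 and -7.43, Sall4 had -7.91 and -6.78, and Dnmt3l had -7.42 and -6.17. Tdh, encoding threonine dehydrogenase, was the main exception, with -7.18 for ATRA and -8.63 for BMS753. The factor gene Otx2 was in the ATRA table only, at -4.72. Nanog (-6.16 and -5.47), Zscan10 (-10.19 and -9.26), Lefty1 (-9.24 and -8.28) and L1td1 (-7.54 and -6.68) had the lower value with ATRA by less than 1, while Tdgf1 (-10.62 and -10.03), Utf1 (-9.71 and -9.17), Fgf4 (-8.68 and -8.41), Dnmt3b (-7.81 and -7.47) and Lin28a (-8.13 and -8.08) were closer still. Nr0b1 (-7.16 and -7.70) and Cdh1 (-4.95 and -5.28) had the lower value with BMS753, and Dppa4 and Lefty2 had the same value in both tables. The value of Lefty2 (-7.64) recurred in the ethanol control at day 10, and that of Dppa4 (-6.81) in rarbKO with ATRA. As described below, such recurring values cannot be read as levels, so they do not show equal loss with the ligands. The Pou5f1 retrocopies Pou5f1-rs4 (-10.56 and -8.39) and Pou5f1-rs6 (-9.92 and -8.82) can share reads with Pou5f1 and are uncertain. In rarbKO and rargKO the ATRA value was the lower for all 9 and all 19 shared members.

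Part of the spread among lower genes came from values that recurred. For each ligand, 27 genes had a log2 value equal, within 0.0001, to that gene's value in another library's table, and 26 of these with ATRA and 27 with BMS753 were lower genes. Among the 10 most positive differences, 3 rested on such a value. Cnga3, a cyclic nucleotide-gated channel gene, had -5.95 with ATRA and -9.37 with BMS753, and -9.37 was also its value with ATRA at day 4. The cardiac myosin light chain gene Myl3 had -5.45 and -8.57, the latter recurring in the line lacking RAR alpha treated with ATRA. Osgin1 had -6.17 and -8.26, the latter recurring at day 10 in wild-type cells given BMS641 with BMS961, agonists selective for the other subtypes. A value that recurs in another library cannot be read as the level in its own, so these differences carry no size. The ATRA values of Eras and Pdzk1ip1 (-7.75, against -5.24 with BMS753) recurred too, whereas those of Gdf3, Nodal, Aspg (-8.88 and -5.58), Ccnb1ip1 (-8.02 and -5.18), Fgfbp1 (-6.99 and -4.77) and Eprn (-7.22 and -5.04) had larger distances from 0 with ATRA than with BMS753 without that. Within a single table, 66 genes with ATRA and 47 with BMS753 had the same value and p-value as another gene. Higher genes were among them, such as Bgn with Krt5 and Wnt10b with Wnt7b for BMS753, and Slc32a1 with Hoxc9 for ATRA. The source of these ties was not tested.

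Genes named by their size in 1 table only came from varied classes. With ATRA only, higher values included the actin-binding gene Pfn4 (8.04), Fam43b (7.94), the neuronal factor gene Bhlhe22 (7.84), Gpr155 (7.72), Arap2 (7.68) and Spata9 (7.67). Arap2 was also listed in the ethanol control, at 8.18. Lower values with ATRA only included Pld4 (-7.52), the activity-regulated gene Arc (-7.44), the sodium channel subunit gene Scnn1a (-7.27), Dyrk4 (-7.07) and the zinc transporter gene Slc39a4 (-7.05). With BMS753 only, the factor gene Dmrta1 had the largest value, 9.99, and cleared the limit by 3.16. The basal keratin gene Krt5 (7.74), Olfml1 (7.82), Tgfbr3l (7.70), the lipid carrier gene Apod (7.64) and Fam81a (7.57) followed. Ecrg4, in both tables, had 7.53 with ATRA and 9.99 with BMS753. Lower values with BMS753 only included the uridine phosphorylase gene Upp1 (-8.76), Chmp4c (-7.53) and Rprml (-7.35).

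**Figure D5:**
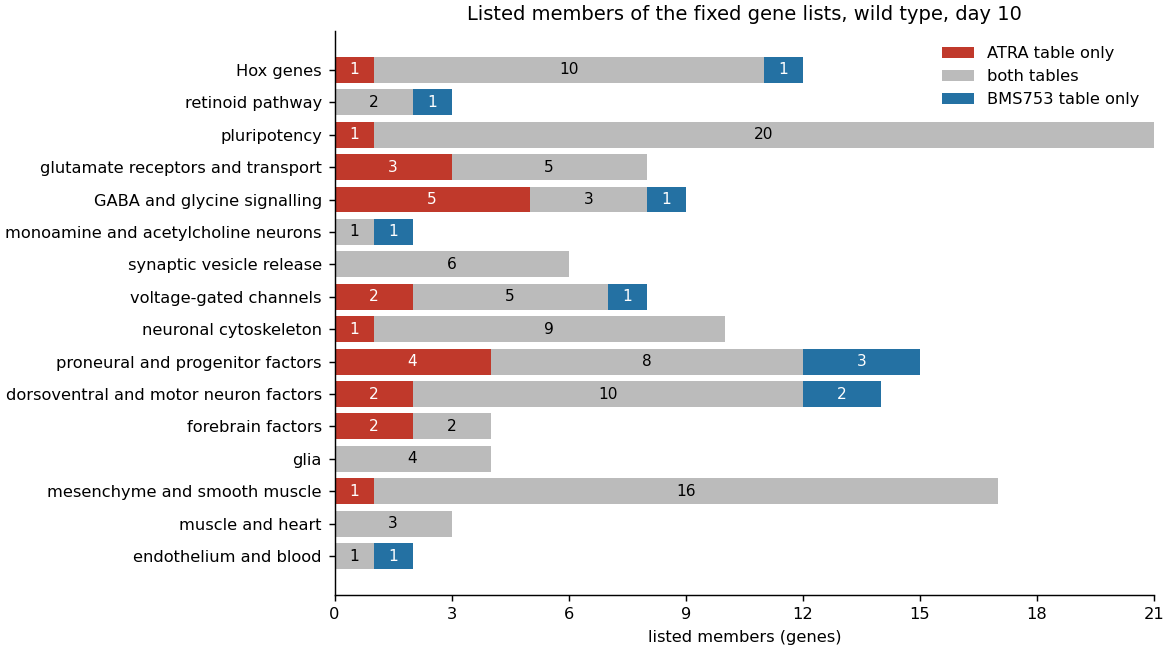
Number of listed members (horizontal axis) of each fixed gene list in the ATRA table only (left segment), in both tables (middle) and in the BMS753 table only (right). GABA and glycine signalling has 5 of 9 listed members with ATRA only, and the mesenchyme list 16 of 17 in both.

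Markers of other cell types gave few listed genes. Of the glia list 4 were shared and none was in 1 table only. Of the 4, 3 were higher, among them Fabp7 of radial glia (10.42 with ATRA and 9.71 with BMS753) and Pdgfra (9.04 and 9.85). The other, Foxd3, was lower with both ligands, as given above. Of the 34 endoderm genes 0 were in either table. Of the muscle and heart list 3 were shared and lower, and of the endothelium and blood list Kdr, the VEGF receptor gene, was in the BMS753 table only at 5.65. Of the marker lists that the study collected, 167 neuron markers were listed, 102 in both tables, 39 with ATRA only (23.4%) and 26 with BMS753 only (15.6%). Of the GABAergic markers 20 were in both, 13 with ATRA only (30.2%) and 10 with BMS753 only (23.3%), both shares being above those over all genes in either table, 20% and 19.6%. Of the glutamatergic markers 22 were in both, 5 with ATRA only (14.3%) and 8 with BMS753 only (22.9%). Of the dopaminergic markers 40 were in both and 12 with each ligand only (18.75% each), near the shares over all genes in either table. Of the astrocyte markers 26 were in both, 2 with ATRA only (5.6%) and 8 with BMS753 only (22.2%). Of the oligodendrocyte precursor (OPC) markers 35 were in both, 9 with ATRA only (17.6%) and 7 with BMS753 only (13.7%).

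Promoters of the compared genes rarely held a direct repeat of the kind that RARs bind. The hexamer AGGTCA and its variants, GGTTCA being the first and AGTTCA the other, paired as direct repeats with 1, 2 or 5 bases between them on either strand, were sought from 250 bases before to 50 after each start. They occurred in 122 of 32851 RefSeq promoters (0.371%) and in 2 of 644 promoters of the 502 compared genes that matched. None of the 402 promoters of shared genes held one. The 2 sequences are shown, 60 bases each with the hexamers in capitals, because they were the only matches. Prokr2, a G protein-coupled receptor gene listed with BMS753 only at 5.50, has a spacing of 5 (GRCm38.p6 chr2:132385553-132385612, minus strand), and Spata9, listed with ATRA only, has a spacing of 2 in reverse orientation (GRCm38.p6 chr13:75967709-75967768, plus strand).
Prokr2: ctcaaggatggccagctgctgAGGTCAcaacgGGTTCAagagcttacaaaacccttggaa
Spata9: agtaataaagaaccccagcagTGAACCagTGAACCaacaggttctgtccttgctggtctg
A match describes letters in this window and says nothing of binding, and its absence says nothing of regulation from further away.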

How the data were processed

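RNA was poly-A selected and sequenced from 24 samples, 1 library per condition, and 23 tables were used here. Per the labels, the authors aligned reads with Bowtie2 2.1.0 to mm9, assigned them to genes with featureCounts, and ran DESeq2 for every library against wild-type EtOH day 2. The deposited log2 values and the deposited p-values, all under 0.01, are that comparison's columns and were used as the measurements, since the tables hold nothing else. The authors' standard error, treated as a score, was given in 1 table (144 genes), where the absolute log2 value divided by the normal quantile of its p-value equalled it within a relative 4.27e-08. Errors of the other tables were computed that way. How far a value clears the limit is its size minus 2.5758 of its errors. The error of a difference treats the values as independent, so it counts the shared reference with each of them and is too large.

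Tables were joined by gene symbol with pandas 2.3.3 in Python 3.11.15 and the joining was tested on simulated data. No p-value was computed. Coordinates are from the mm9 annotation. Genes were named by a rule: of genes in 1 table only the 10 higher and 5 lower largest values per table, of shared genes the 10 largest differences each way and the 5 highest and 5 lowest means, every listed Hox, retinoid, dorsoventral and pluripotency gene, and members of other lists in 1 table only or past a difference of 1. Clone and gene model symbols were counted but not named, and the values of some other genes the rule picks are not reported here. Members and lists were chosen with earlier results of these data known. Alternatives were a p-value limit of 0.001, other difference thresholds, centring, and leaving out genes by symbol type, ethanol listing or implied error.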

Additional observations from a re-analysis of the deposited data

Results flagged for a closer look

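The difference between the ligands ran in opposite directions in different lines for these lists, which drew attention to them. Mesenchyme and smooth muscle genes had a median ATRA minus BMS753 of -0.53 in wild type, 2.38 in rarbKO and 1.02 in rargKO. Over all genes higher with both ligands the medians were 0.21, 0.44 and 0.46, in that order. Neuronal cytoskeleton genes had 0.76 in wild type and -2.64 in rarbKO, the latter over 3 genes. Other members, such as Dcx (7.51) and Elavl4 (6.16), were listed with BMS753 and not with ATRA in rarbKO. The differences between lines were not tested, since each line had 1 library per ligand.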

How the results depend on the processing

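No paired analysis was possible because each condition had 1 library, and for the same reason no library could be left out. With a p-value limit of 0.001, 35 genes were listed with ATRA only, 54 with BMS753 only and 94 with both, and 11 and 15 shared genes had the ATRA or the BMS753 value above by 1 or more. Requiring a clearance of at least 1 left 18 ATRA-only and 19 BMS753-only genes. A difference threshold of 2 gave 7 and 14 genes, and a threshold of 0.5 gave 130 and 109. Leaving out genes with an implied error over 2.5 in either table, an alternative chosen after seeing the data because the errors fell into separate groups around that value, left 84 ATRA-only and 258 shared genes, and 28 and 37 genes past a difference of 1.

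At the limit of 0.001 the listed members fell to 5 Hox, 1 retinoid pathway, 2 glutamate, 3 GABA and glycine, 0 monoamine and acetylcholine, 3 synaptic vesicle, 1 voltage-gated channel, 5 neuronal cytoskeleton, 4 proneural, 7 dorsoventral, 1 forebrain, 10 mesenchyme and 0 endothelium and blood genes, and to 47 neuron, 12 astrocyte, 14 OPC, 11 GABAergic, 11 glutamatergic and 15 dopaminergic markers of the study's lists. Without genes of the ethanol day 10 table, 13 pluripotency and 2 glia genes remained listed. Centring the differences on their median turned the Hox median difference to -0.048, and the limit of 0.001 turned that of the astrocyte markers to 0.25. The Hox median became 0.81 at that limit. The OPC median, 0 as reported to 2 decimals, became -0.07 after centring and -0.57 at the limit of 0.001, and the muscle and heart median, also 0, became -0.07 after centring. The other medians kept their sign wherever an alternative could be computed. Centring took Elavl4 below a difference of 1 (0.98), took Lefty1 (-1.03) and Zscan10 (-1.01) past it, and turned the signs of Aldh1a2 (-0.033), Irx5 (-0.029) and Hoxa7 (-0.00031). The small lists lose most members at the stricter limit, so their counts depend on it. Depth is unknown, so how many missing genes a deeper library would list was not tested.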
